A study of Mus musculus with 6 samples.

Results

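The 8 BH3-only genes of the mouse, Bcl2l11, Bbc3, Pmaip1, Bid, Bad, Bik, Bmf and Hrk, were followed in RAW264.7 macrophages that received a miR-342-3p mimic. They were taken by symbol as the genes encoding the classical BH3-only proteins, by a rule that uses no measured value, although earlier results of these data were known when it was set. All 8 were among the 19938 genes tested, and each was represented by exactly 1 probe set. RAW264.7 cells are macrophage-like cells of an established mouse line, derived from a tumor induced by Abelson murine leukemia virus. The miR-342-3p group consisted of 3 samples of cells transfected with the mimic, a synthetic RNA standing in for the mature microRNA, and the control group of 3 samples transfected with a negative control mimic. Total RNA was isolated 18 h after transfection in both groups, and 150 ng of it was amplified and labeled for each Affymetrix whole-transcript array. Both groups were thus transfected cells of 1 line, and no untransfected sample was analysed here. The study describes the 3 transfections of each group as independent experiments. The number of arrays limits the precision.

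BH3-only proteins are the sensors of the mitochondrial death pathway. Through a short helix, the BH3 domain, they occupy the groove of the survival proteins BCL2, BCL-XL and MCL1, and some of them also engage BAX and BAK directly, which then open the outer mitochondrial membrane and release cytochrome c. BIM (Bcl2l11), PUMA (Bbc3) and BID bind every survival protein and activate BAX and BAK. NOXA (Pmaip1), BAD, BIK and Harakiri (Hrk) bind a narrower set and, like BMF, are classed as sensitizers. Several are controlled at the level of the protein as well, by cleavage, phosphorylation or sequestration, which arrays do not measure. BIM is known as a main regulator of leukocyte lifespan.

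The RNA that separates the groups is the mature miR-342-3p, shown here because it defines the treatment. In RefSeq it lies at chr12:108658680-108658702 on the plus strand (GRCm38.p6) and has 23 bases. Capitals mark the seed, bases 2 to 8 from the 5′ end, which pairs with target transcripts. None of the other mature microRNAs among the 1679 names in the RefSeq table carried this seed.
mmu-miR-342-3p: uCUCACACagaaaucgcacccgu

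In miR-342-3p-transfected cells 2 of the 8 BH3-only genes rose at an FDR under 0.1, no gene fell, and the other 6 were not called. Those that rose were Bcl2l11, with a rise of 32.5%, and Bbc3, with a rise of 30.1%. Across all genes tested 4.14% were called higher and 7.42% lower, so that 25% of the BH3-only genes were called higher, from a list of only 8. At an unadjusted p under 0.05 limma gave 4 higher (Bcl2l11, Bbc3, Bad and Bmf) and 1 lower (Pmaip1). Of all 19938 genes, 2502 were higher and 2584 lower at that p. Limma was also the study's test for these arrays. An unmoderated test (equal variances, with the spread taken from each gene alone) was run as an alternative and adjusted in the same manner. It called none of the 8. At an unadjusted p under 0.05 it gave 3 higher and 1 lower, against 2080 and 1955 of all 19938 genes. Unadjusted counts of the lists below are to be read beside these counts of all genes. The median log2 fold change of the 8 genes was 0.18, against 0.069 over all genes. Marker lists of other cell types also had medians above that of all genes, 0.165 for 8 fibroblast and 0.127 for 7 lymphocyte markers. The median of 11 macrophage markers was -0.097. A median of 0.18 is thus not particular to the BH3-only genes. A positive log2 fold change stands for a higher value in miR-342-3p-transfected cells.

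Counted by overlap, all miR-342-3p arrays exceeded all controls for 3 of the 8 genes (Bcl2l11, Bbc3 and Bmf), and all were below the controls for 2 (Pmaip1 and Bid). Across all genes tested these shares were 21.4% and 15.5%, and nothing is read from counts in a list of only 8 genes.

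**Figure D1:**
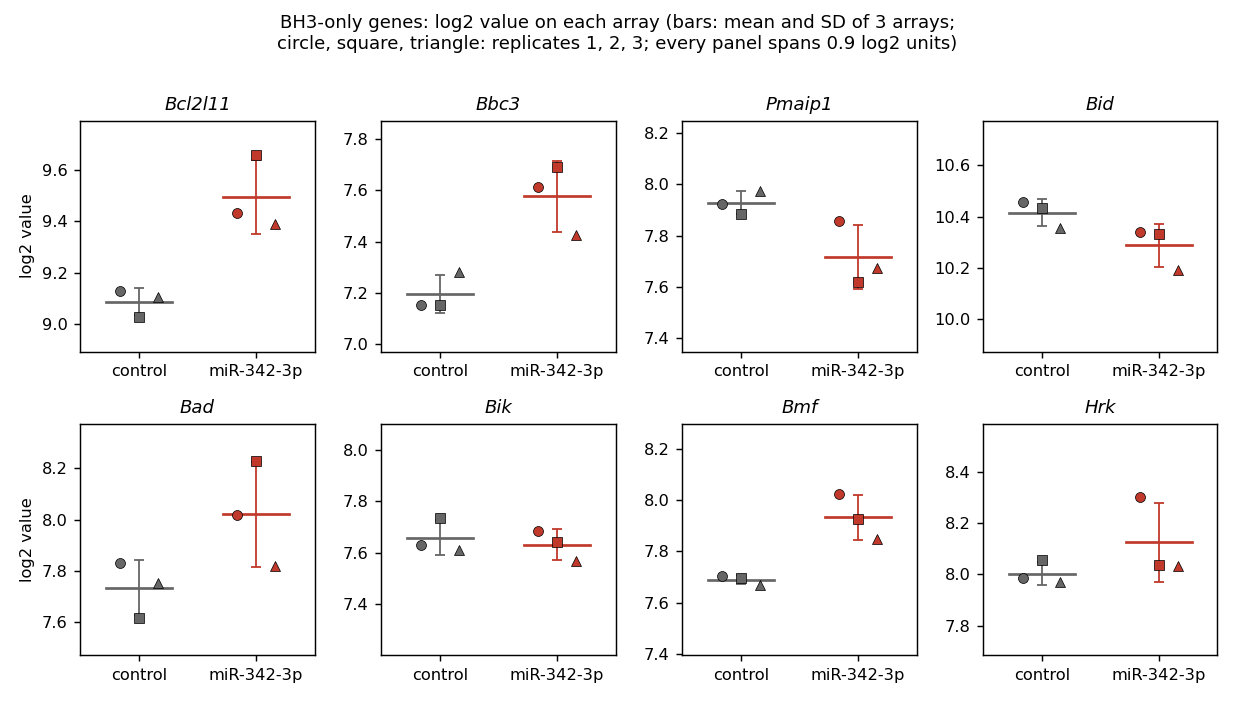
Log2 value of each BH3-only gene on each of the 6 arrays (vertical axis, log2; each panel spans the same width), with control arrays in grey, miR-342-3p arrays in red and the symbol giving the replicate; lines and bars are the mean and SD of 3 arrays. The groups are separate for Bcl2l11, Bbc3 and Bmf (higher) and for Pmaip1 and Bid (lower), the last with a gap of only 0.014.

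Bcl2l11 encodes BIM, which is held on microtubules in healthy cells and activates BAX and BAK once released. Its log2 values were 9.13, 9.03 and 9.10 in control replicates 1, 2 and 3 and 9.43, 9.66 and 9.39 in miR-342-3p replicates 1, 2 and 3. The groups did not overlap, and miR-342-3p replicate 2 was the highest array. The means were 9.09 ± 0.053 and 9.49 ± 0.14 (SD, n = 3 arrays each). This amounts to a log2 fold change of 0.41 (95% interval 0.20 to 0.61, standard error 0.091, FDR = 0.042), and it was larger than the spread between replicates.

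Bbc3 encodes PUMA, a p53 target that binds all the survival proteins. Its control arrays measured 7.15, 7.15 and 7.28 and its miR-342-3p arrays 7.61, 7.69 and 7.42 (log2 values of replicates 1, 2 and 3). Here too the groups were separate, with miR-342-3p replicate 3 closest to the controls at a gap of 0.14. The means of 7.20 ± 0.075 and 7.58 ± 0.14 (SD, n = 3 each) gave a log2 fold change of 0.38 (standard error 0.092, 95% interval 0.17 to 0.59, FDR = 0.052).

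Both calls rested on all 3 control arrays, as did most calls over all genes. In all, 825 genes were called higher with every array, and 100, 88 and 94 without control replicate 1, 2 or 3. Without control replicate 1, 2 or 3 the log2 fold change of Bcl2l11 was 0.43, 0.38 and 0.41 and that of Bbc3 0.36, 0.36 and 0.42, and neither gene passed the threshold (lowest FDR 0.154 and 0.148). With the unmoderated test their FDRs were 0.159 and 0.173.

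The sequences before the transcription starts of the 2 called genes are shown because both genes rose, and FOXO factors are known activators of both. RefSeq promoters of 6 of the 8 genes were searched, with 12 start sites in all. Pmaip1 and Bik were not searched, so nothing is known here of their motifs. In the 250 bases before each start, the FOXO motif TGTTTAC was searched on both strands. The C/EBP-ATF motif TGATGNAA, the cyclic AMP response element TGACGTCA, the AP-1 motif TGANTCA, the SP1 motif GGGCGG and the p53 half-site were searched likewise. The FOXO motif occurred once before a start of Bcl2l11 and once before a start of Bbc3, and in none of the windows of the other 4 genes searched. Of all 32851 promoters of this length 3.17% contain it. That share is for single windows, and Bcl2l11 had 2, Bbc3 3, Bad 2, Bmf 3, and Bid and Hrk 1 each. Genes with more windows have more places for a match, so the genes are not compared on like terms. In the window of Bcl2l11, at chr2:128125788-128126037 on the plus strand (GRCm38.p6), the match begins 227 bases before the start and reads from the other strand. In that of Bbc3, at chr7:16310011-16310260 on the plus strand, it begins 167 bases before. Capitals mark the match, and these letters alone do not make a binding site.
Bcl2l11: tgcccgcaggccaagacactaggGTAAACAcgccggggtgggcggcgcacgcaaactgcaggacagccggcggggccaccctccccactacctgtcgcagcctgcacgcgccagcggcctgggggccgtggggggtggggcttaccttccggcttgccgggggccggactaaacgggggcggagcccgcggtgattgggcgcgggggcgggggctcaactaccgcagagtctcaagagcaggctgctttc
Bbc3: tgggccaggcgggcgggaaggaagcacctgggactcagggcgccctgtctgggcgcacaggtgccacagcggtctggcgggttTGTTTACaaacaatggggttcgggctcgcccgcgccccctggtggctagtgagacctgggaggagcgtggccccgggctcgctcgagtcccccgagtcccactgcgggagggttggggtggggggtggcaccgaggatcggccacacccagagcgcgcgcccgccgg

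The other start of Bcl2l11 and the other 2 of Bbc3 did not hold the FOXO motif. The SP1 motif was present before all starts of Bcl2l11 and Bbc3, 1 of the 2 starts of Bad and the single starts of Bid and Hrk, and in 32.7% of all promoters. TGATGNAA was found before the start of Hrk (3.45% of all promoters) and the p53 half-site before 1 of 3 starts of Bmf (7.13%). Neither was found before any start of Bcl2l11 or Bbc3. The cyclic AMP response element and the AP-1 motif, with background shares of 1.55% and 6.75%, were in none of the 12 windows.

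Bmf, Bad and Hrk had positive log2 fold changes without a call. Bmf encodes a sensor of detachment that is sequestered on the actin motor complex. Its values were 7.70, 7.70 and 7.67 in the controls and 8.02, 7.93 and 7.85 with miR-342-3p, so that its groups did not overlap. Its log2 fold change of 0.24 (standard error 0.077, 95% interval 0.068 to 0.42) just missed the threshold, with an FDR of 0.102. Bmf was called without miR-342-3p replicate 3 (FDR = 0.054), with the genes of low level left out (FDR = 0.074) and with quantile normalization repeated (FDR = 0.077).

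Bad encodes a protein that is inactive while phosphorylated by survival kinases and that targets BCL2, BCL-XL and BCL-W. Its control values were 7.83, 7.62 and 7.75, and its miR-342-3p values 8.02, 8.23 and 7.82. The groups overlapped, since miR-342-3p replicate 3 lay just below control replicate 1. The log2 fold change was 0.29 (standard error 0.11, 95% interval 0.029 to 0.54, FDR = 0.161). Without miR-342-3p replicate 3 it was 0.39 and passed the threshold (FDR = 0.051), and without miR-342-3p replicate 2 it was 0.18.

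Hrk, known mainly from neurons, was measured at 7.98, 8.06 and 7.97 in the controls and at 8.30, 8.04 and 8.03 with miR-342-3p. Only replicate 1 stood above the controls. The log2 fold change was 0.12 (95% interval -0.090 to 0.33, FDR = 0.407), and it was 0.032 without miR-342-3p replicate 1, 0.051 with the arrays centered and 0.19 with quantile normalization repeated.

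Pmaip1, Bid and Bik had negative log2 fold changes, none of them called. Pmaip1 encodes NOXA, a p53 target that binds MCL1 and promotes its degradation. Its values were 7.92, 7.89 and 7.98 in the controls and 7.86, 7.62 and 7.67 with miR-342-3p. The groups did not overlap, although miR-342-3p replicate 1 was within 0.029 of the lowest control. The log2 fold change was -0.21 (standard error 0.085, 95% interval -0.41 to -0.017, FDR = 0.168). Pmaip1 was called lower after centering of each array on its own median (-0.28, FDR = 0.063) and without miR-342-3p replicate 1 (-0.28, FDR = 0.069).

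Bid encodes the link from death receptors to mitochondria, since the protein is activated by caspase-8 cleavage. It measured 10.46, 10.44 and 10.35 in the controls and 10.34, 10.33 and 10.19 with miR-342-3p. These groups were separated by a gap of 0.014, and the log2 fold change was -0.13 (95% interval -0.31 to 0.051, FDR = 0.317). Without miR-342-3p replicate 3 it was -0.079, with the arrays centered -0.20 and with quantile normalization repeated -0.078. For Bik, a protein of the endoplasmic reticulum, the values of 7.63, 7.74 and 7.61 in the controls and 7.69, 7.64 and 7.57 with miR-342-3p overlapped. The log2 fold change was -0.026, with an interval of -0.20 to 0.15 that left out changes as large as those of Bcl2l11 and Bbc3, and its sign turned without control replicate 2 (0.013) and without miR-342-3p replicate 3 (0.0055).

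**Figure D2:**
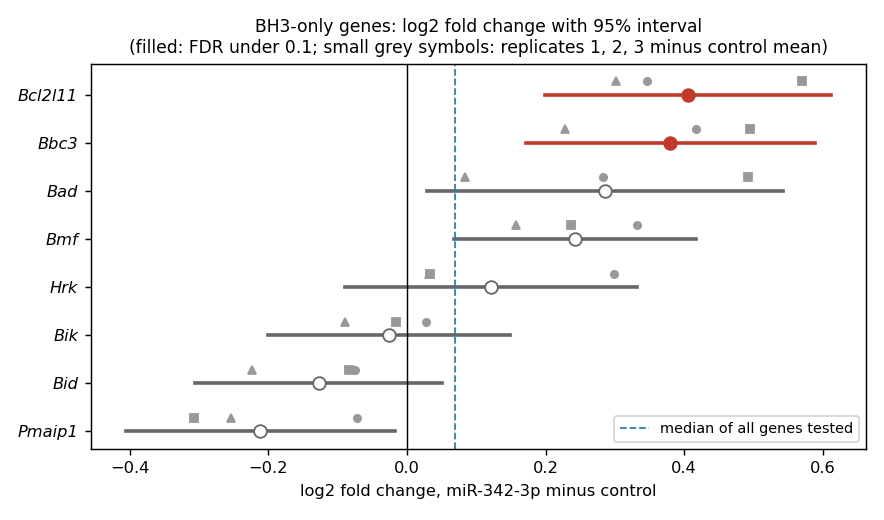
Log2 fold change (horizontal axis, miR-342-3p minus control) of each BH3-only gene with its 95% interval from limma; filled circles passed an FDR of 0.1, small grey symbols are the miR-342-3p replicates minus the control mean, and the dashed line is the median of all genes (0.069). Bcl2l11 (0.41) and Bbc3 (0.38) are the genes called, and Pmaip1 (-0.21) lies at the other end.

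The miR-342-3p replicates did not rise equally. Replicate 3 had the smallest rise of the 3 in Bcl2l11 (0.30), Bbc3 (0.23), Bad (0.083), Bmf (0.16) and Hrk (0.031). The largest rise was in replicate 2 for Bcl2l11 (0.57), Bbc3 (0.50) and Bad (0.49), and in replicate 1 for Bmf (0.33) and Hrk (0.30). Bid showed its largest drop in replicate 3 (-0.22), and Pmaip1 its largest in replicate 2 (-0.31). Across all genes, which are not independent replicates, the miR-342-3p arrays correlated with each other at 0.991 to 0.993 and the control arrays at 0.998 to 0.999.

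PUMA and NOXA are both known as products of p53 target genes, and their log2 fold changes had opposite signs, with only that of Bbc3 called. The log2 value of Bbc3 minus that of Pmaip1 on the same array was -0.77, -0.73 and -0.69 in the controls and -0.24, 0.070 and -0.25 with miR-342-3p. Since 2 probe sets are involved, only the change of this difference can be read, not its level. It changed by 0.59. The pair was chosen after its values had been seen, both genes were already separate between the groups in opposite directions, and the difference is given as a description with no test. Such a difference within an array does not depend on the centering of the arrays. Trp53 itself was not analysed here.

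The other genes of the mitochondrial pathway were taken from lists, and none of their limma calls given here was made by the unmoderated test at the same FDR. Of 5 measured survival genes of the BCL2 family, only Bcl2l1 passed the test in limma and it was lower (20%, against 7.42% over all genes). Bcl2l1, which encodes BCL-XL, a binding partner of BIM and PUMA, fell by 0.60 on the log2 scale (standard error of 0.087 in limma, FDR = 0.014) and was below the controls on every miR-342-3p array. The study selected this gene for its reporter assays. Mcl1 was at 0.11 (FDR = 0.452), with 0.020 without miR-342-3p replicate 2 and 0.17 without replicate 1, Bcl2 at -0.24 (FDR = 0.319), Bcl2l2 at 0.10 and Bcl2l10 at 0.11. The list median was 0.10. The paralogs Bcl2a1a, Bcl2a1b and Bcl2a1d are annotated to shared probe sets and were not analysed here.

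The log2 value of Bcl2l11 minus that of Bcl2l1 was -0.67, -0.80 and -0.72 on the control arrays and 0.35, 0.30 and 0.18 on the miR-342-3p arrays. The SDs were 0.065 and 0.087 (n = 3 each), and the difference changed by 1.01. This pair too was chosen with its values known and separates by that choice, so it is a description, and transcript levels do not give the ratio of the proteins.

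Of the effectors, Bak1 had a log2 fold change of 0.018 (FDR = 0.889), and its sign turned when each array was centered (-0.053), without control replicate 3 (-0.0026) and without miR-342-3p replicate 2 (-0.027). Bok, a BAX relative, was at 0.26 (FDR = 0.115). Neither passed the test in limma (at an unadjusted p under 0.05 1 was higher, by limma and by the unmoderated test), and Bax was not analysed here. Of 7 further BH3-like and BCL2-related genes, 1 fell (14.3%, against 7.42% over all genes) and the other 6 were not called. The gene that fell, Becn1, encodes the autophagy protein Beclin 1, which has a BH3 domain of its own (-0.31, FDR = 0.062), and it missed the threshold without control replicate 1, 2 or 3 (-0.34, -0.25 and -0.33). At an unadjusted p under 0.05, limma gave 3 higher and 1 lower in this list, and the unmoderated test 2 and 1. The list median was 0.078.

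Downstream of the mitochondria, 2 of 7 measured genes of caspase activation fell (28.6%, against 7.42% over all genes, from a short list). The other 5 were not called, and the list median was -0.19. Xiap, an inhibitor of caspases, had a log2 fold change of -0.74 (FDR = 0.025) and Diablo, whose product antagonizes XIAP, of -0.39 (FDR = 0.073). Both missed the threshold without control replicate 1, 2 or 3, where the FDR was at least 0.105 for Xiap and 0.221 for Diablo. Casp9, the initiator caspase of this pathway, was at 0.26 (FDR = 0.120) and Apaf1, its scaffold, at -0.031. At an unadjusted p under 0.05, limma gave 1 higher and 3 lower genes in this list, and the unmoderated test 1 and 2.

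Transcription factors and cofactors known to control BH3-only genes formed the list with the most calls. Of 19 measured, 7 rose (36.8%, against 4.14% over all genes), no gene fell in limma and the other 12 were not called, and the list median was 0.19. The list was chosen with earlier results of these data known, so its share of calls is a description and not an enrichment. Ddit3, which encodes the stress factor CHOP, a known activator of Bcl2l11 and Bbc3, had a log2 fold change of 1.07 (FDR = 0.011). Trib3, a CHOP target and pseudokinase, was at 1.03 (FDR = 0.016). Cebpa (0.68, FDR = 0.027) and Cebpb (0.50, FDR = 0.091) encode partners of CHOP. Fos was at 0.50 (FDR = 0.046) and Egr1 at 0.42 (FDR = 0.062), both immediate early genes, and the remaining one was Atf4 (0.35, FDR = 0.079). For Ddit3 the rise over the control mean was 0.96, 1.40 and 0.86 in replicates 1, 2 and 3, so that replicate 2 was the highest and replicate 3 the lowest. Trib3, Cebpa, Cebpb, Fos, Egr1 and Atf4 had the same order, as had Bcl2l11, Bbc3, Bad and Casp9. It is therefore not particular to Ddit3 and the called members. Without control replicate 1, 2 or 3, Ddit3 and Trib3 were the genes of this list still called (2 of 7 in each case), and 4 were called without miR-342-3p replicate 1. Cebpb and Atf4 also missed the threshold after centering of the arrays (FDR = 0.141 and 0.169) and without miR-342-3p replicate 1 (FDR = 0.174 and 0.114). Cebpb was at 0.32 without miR-342-3p replicate 2 (FDR = 0.105) and at 0.38 with array weights (FDR = 0.106), and it was called in 8 of 18 alternatives. At an unadjusted p under 0.05, limma gave 9 higher and 1 lower in this list, and the unmoderated test 8 and 0. The relation of these factors to the BH3-only genes was not tested.

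Of the genes for FOXO factors, whose motif stands before a start of Bcl2l11 and of Bbc3, Foxo1 was at 0.23 (FDR = 0.133), Foxo4 at 0.19 (FDR = 0.206) and Foxo3 at 0.017 (FDR = 0.895). None was called by limma. FOXO activity is set largely by phosphorylation and location of the protein, which arrays do not measure. A role of FOXO factors in the changes of Bcl2l11 and Bbc3 was not tested.

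No gene was called (limma) among 29 measured kinases, phosphatases, ligases, proteases and anchors that act on BH3-only proteins. Over all genes 4.14% were called higher and 7.42% lower. At an unadjusted p under 0.05, limma gave 2 higher and 6 lower in this list, and the unmoderated test 2 and 4. Without miR-342-3p replicate 3, 3 were called higher and 3 lower, and without miR-342-3p replicate 2, 2 were called lower. Their log2 fold changes ran from -0.54 for Usp9x, a deubiquitinase of MCL1, to 0.32 for Pim1, a kinase of BAD. The value of Usp9x in replicate 2 minus the control mean was -1.17, against -0.39 and -0.051 in replicates 1 and 3, and it was not called (FDR = 0.195). Dynll1 and Dynll2, the dynein light chains that anchor BIM and BMF, were at 0.0095 and -0.042. Casp8, whose product cleaves BID, was at 0.15 (FDR = 0.251).

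**Figure D3:**
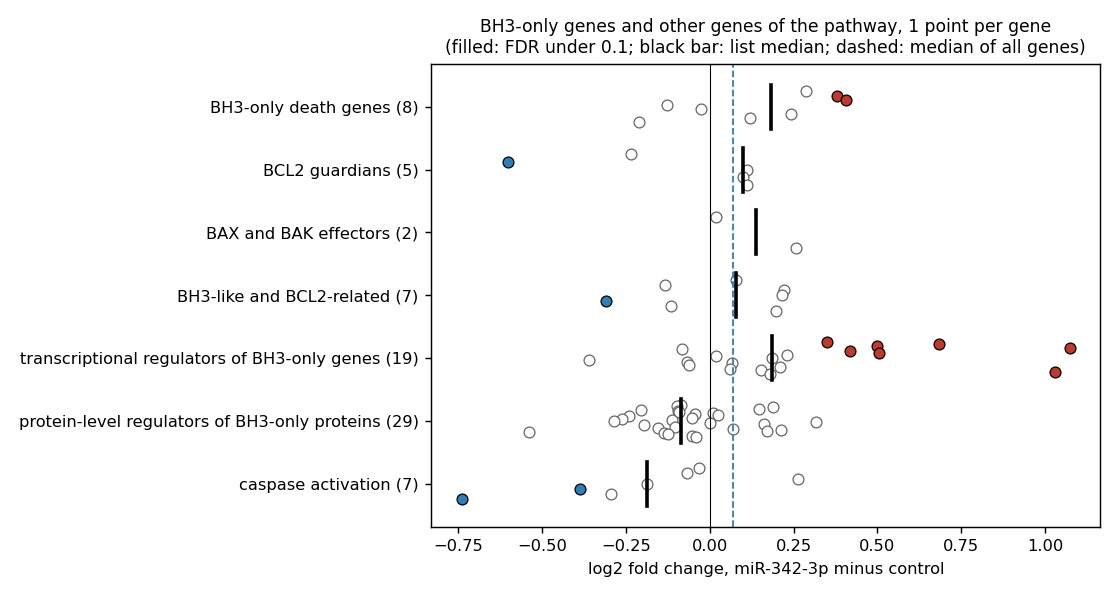
Log2 fold change (horizontal axis) of each measured gene in the BH3-only group and in 6 lists of the same pathway, with the number of genes in parentheses, filled points for genes called at an FDR under 0.1 and a black bar at the list median. Among the lists shown, the highest medians are those of the transcriptional regulators (0.19) and the BH3-only genes (0.18), and no protein-level regulator is called. The marker lists are not shown.

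The genes whose values over the 6 arrays most resembled those of Bcl2l11 were Nupr1, which encodes a stress-induced chromatin protein (Pearson r = 0.9992), the mitochondrial carrier Slc25a44 (0.9988) and the importin Ipo13 (0.9984). For Bbc3 they were Spink8 (0.9956), 1700007K13Rik (0.9945) and Tfap2c (0.9936). These are the 3 highest values among all genes over 6 arrays that share the same group difference, and they are given as a description. Nupr1 had a log2 fold change of 0.82 (FDR = 0.020).

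The cells were checked against marker genes. All 11 macrophage markers were measured, from a control mean of 7.49 for Adgre1 to 12.68 for Cd68 (log2 values), and the mean of the list was 11.14 to 11.17 on the control and 11.00 to 11.18 on the miR-342-3p arrays. Of this list 2 genes were higher (Spi1 and Tyrobp) and 1 lower (Itgam). The mean of 8 fibroblast markers was 6.54 to 6.61 in the controls and 6.67 to 6.97 with miR-342-3p, with Pdgfra higher (0.49, FDR = 0.031), and that of 7 lymphocyte markers 5.54 to 5.62 and 5.57 to 5.94, with none called by limma (1 higher at an unadjusted p under 0.05, none by the unmoderated test). Among 1027 olfactory receptor genes, which macrophages are not known to use, 10 were higher and 1 lower, with a median of 0.070. The 95th percentile of their control means was 6.47, which is a rough guide to unspecific signal since levels of different probe sets are not comparable. All 8 BH3-only genes had control means above it, as had 4 of the 8 fibroblast and 1 of the 7 lymphocyte markers. Pdgfra (control mean 6.42) was below it. The lowest control mean of the BH3-only genes, 7.20 for Bbc3, was below that of the fibroblast marker Col1a1 (7.93). The part of these shifts in the BH3-only results was not tested. In bulk RNA a changed share of cells and a changed level per cell cannot be told apart, and the deposited values carry no detection calls.

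**Figure D4:**
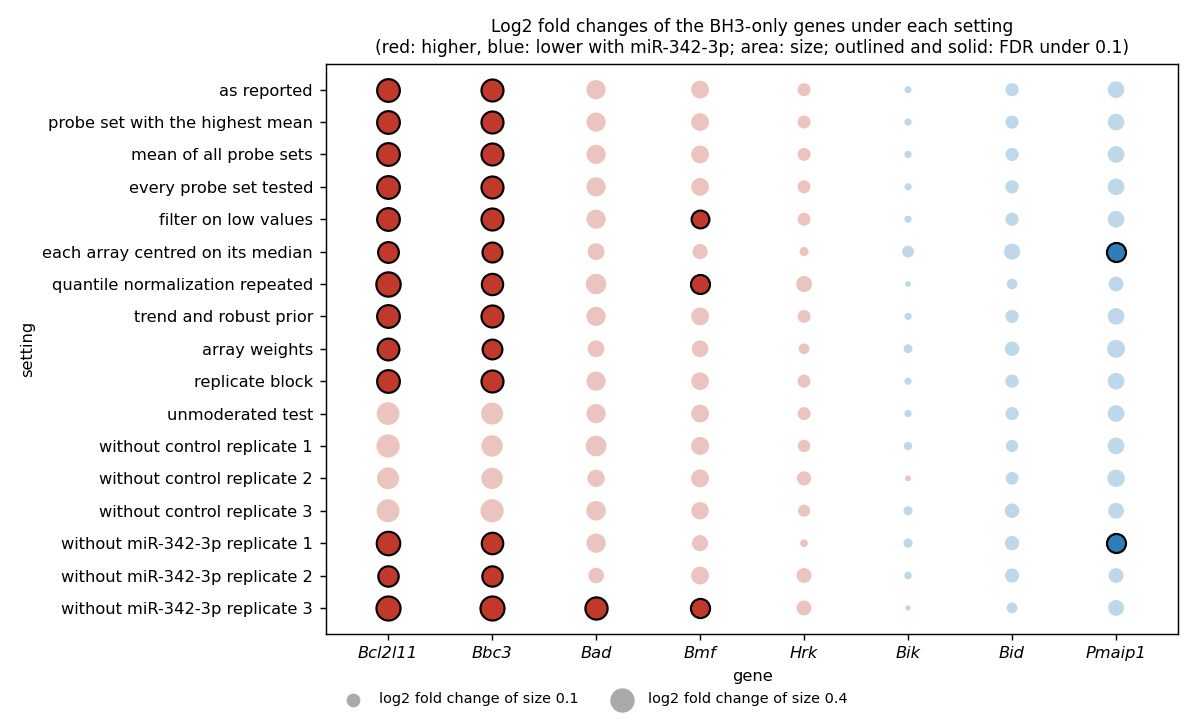
Log2 fold change of each BH3-only gene (columns) under each way of processing (lines of points), with red for higher, blue for lower, the area of a point for the size of the change, and solid, outlined points for an FDR under 0.1. Bcl2l11 and Bbc3 keep their direction throughout and lose the call with the unmoderated test and without any 1 control array; Bik is the gene whose direction turns, in 2 settings that each leave out an array.

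Scaling moved the balance of calls over the whole array. In the deposited values 64.2% of all called genes were lower, against 84.2% after centering of the arrays and 50.7% with quantile normalization repeated. In the last case the genes called lower numbered 1453, close to the 1479 of the deposited values, whereas those called higher rose from 825 to 1414. Bcl2l11 was called in both cases, at 0.34 (FDR = 0.084) and 0.47 (FDR = 0.019), and so was Bbc3, at 0.31 (FDR = 0.085) and 0.36 (FDR = 0.049).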

How the data were processed

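Gene expression was measured on 6 arrays. The authors processed the scans with RMA (version not given in the sources used here) and deposited 1 log2 value for each of 35556 probe sets. The largest gap between array medians was 0.151. Groups and replicate numbers came from the labels. Gene names came from the platform annotation (21789 probe sets with 1 gene, 1621 with several, 12146 unnamed), and 21698 Entrez IDs were matched to RefSeq (GRCm38.p6). A gene with several probe sets was represented by that of largest interquartile range. As in the study, the 19938 genes were tested with limma, here version 3.58.1 in R version 4.3.3 (lmFit and eBayes, 4.79 prior and 4 residual degrees of freedom). P-values were adjusted by the Benjamini-Hochberg method over all genes, and genes were called at an FDR under 0.1. At this FDR the study reports more genes in both directions than the 825 higher and 1479 lower called here. The shares of called genes are therefore not those of the study, and the reason was not tested. Steps were tested on simulated data, with independent genes and equal spread in both groups. There 83.35% of changes of 0.5 on the log2 scale and 99.65% of changes of 1 were called. False calls made up 12.0% of the calls. The real miR-342-3p arrays were less alike than the control arrays, so these shares need not hold for them.

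The members and the lists were chosen with earlier results of these data known. Named were the 8 members, Bcl2l1, Mcl1 and Bak1, from each list up to 6 called genes with the largest change, and the 3 genes most correlated with each called member. Atf4, Nupr1's values and genes given as examples of uncalled list members were added after their values were seen. Alternatives were other probe set rules, a filter at the 25th percentile of level, other scalings, other priors, array weights, a replicate block, an unmoderated test, FDR thresholds of 0.05 and 0.01, and each array left out. Protein sequences were not used here. Motifs and figures used Python version 3.11.15 with matplotlib version 3.10.9.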

Additional observations from a re-analysis of the deposited data

How the results depend on the processing

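Across the 18 alternatives, Bcl2l11 kept its direction in 18 and its call in 13, and Bbc3 in 18 and 12. Bad, Bmf, Hrk, Pmaip1 and Bid also kept their direction in 18, and Bik in 16. With the unmoderated test Bcl2l11 (0.41) and Bbc3 (0.38) lost the call, which left 0 members higher, 26 genes higher and 22 lower in all, and 0 higher and 0 lower in the pathway lists (in the deposited values 825 and 1479 of all genes, 7 and 4 in the lists). At an FDR threshold of 0.05 the counts were 1 member (Bbc3, at 0.38, was lost), 312 and 661 genes, and 4 and 2 in the lists, and at 0.01 they were 0 members (Bcl2l11 at 0.41 and Bbc3 at 0.38 were lost), 33 and 19 genes, and 0 and 0. Centering each array gave 376 genes higher and 1 member lower (Pmaip1, -0.28). Repeated quantile normalization gave 1414 genes higher, 12 of them in the lists, and called Bmf (0.28), as did the filter on low values (0.24). When 1 array was left out, 0 to 4 members were higher and 0 to 1 lower, with 88 to 2104 genes higher and 102 to 2422 lower among all genes and 2 to 15 higher and 1 to 8 lower in the lists. The highest counts of all genes, and 4 members higher, came without miR-342-3p replicate 3, and the lowest without a control array. The changes then ranged from 0.32 to 0.46 for Bcl2l11, 0.32 to 0.46 for Bbc3, 0.18 to 0.39 for Bad, 0.20 to 0.28 for Bmf, -0.28 to -0.16 for Pmaip1 and -0.16 to -0.079 for Bid. The cause of these differences was not tested. Same-numbered arrays did not deviate together (correlations of -0.31, -0.16 and -0.11 for replicates 1, 2 and 3), so the numbers were not taken as pairs. With the replicate block 2 members were higher (Bcl2l11, FDR = 0.052, and Bbc3, FDR = 0.070), with 550 genes higher and 1445 lower among all genes, and among the named list genes Becn1 was not called (FDR = 0.111). The deposited values carry no background signal, so that olfactory receptor genes were the only guide to it.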
